A study of Mus musculus with 48 samples.

Results

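The axon guidance loci are 8 stretches of the mouse genome at genes for ligands and receptors that steer growing axons: Slit2, Slit3, Sema3a, Robo1, Robo2, Unc5c, Nrp1 and Epha5. Open chromatin was measured there in mice that develop small cell lung cancer. Members were chosen by position, as merged ATAC-seq peaks of 501 bp centred in a fixed window of build mm9 for each gene. Of 114043 merged peaks, 191 qualified. The Unc5c window on chromosome 3 from 141 to 141.6 Mb held 47 peaks and the Sema3a window on chromosome 5 from 13 to 13.7 Mb held 38. Slit2 (chromosome 5, 48.3 to 48.8 Mb) and Slit3 (chromosome 11, 34.85 to 35.6 Mb) held 29 peaks each, Nrp1 (chromosome 8, 130.8 to 131.1 Mb) held 27 and Epha5 (chromosome 5, 84.4 to 84.9 Mb) held 21. No merged peak of the list used here lay in the windows of Robo1 (chromosome 16, 72.2 to 73.15 Mb) and Robo2 (chromosome 16, 73.8 to 74.6 Mb), so these loci are described from summits alone. The tie between a window and its gene rests on the windows as chosen, since no mm9 annotation was used here and no peak was assigned to an exon, intron or promoter.

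Slit proteins are secreted ligands that bind Robo receptors on the growth cone and repel it. Sema3a is a secreted semaphorin that signals through the co-receptor Nrp1, Unc5c is a netrin receptor that mediates repulsion, and Epha5 is a receptor tyrosine kinase for membrane-bound ephrins. The same genes act outside the nervous system in cell migration and vessel growth, and small cell lung cancer is a tumor with neuroendocrine features.

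ATAC-seq maps open chromatin by letting the Tn5 transposase insert adapters into accessible DNA. All 48 libraries came from mice of the genotype Trp53-/-;Rb1-/-;p130-/-;R26mG, in which Cre deletes 3 tumor suppressors and switches on a membrane-bound green fluorescent reporter at the Rosa26 locus. Cre came by adenovirus, either driven by the CMV promoter, active in most cell types (Ad-CMV-Cre), or by that of CGRP, a neuropeptide made in neuroendocrine cells (Ad-CGRP-Cre), and the series asks how the cell of origin shapes tumor heterogeneity. The CMV comparison set 8 libraries with amplification of Nfib, the gene of a nuclear factor I transcription factor, against 7 without it, and the CGRP comparison set 7 liver metastases against 11 lung tumors. Another 15 CMV libraries, marked as low in enrichment, entered no comparison, and 6 of them were Nfib-amplified.

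Several features of the groups bear on every result. Of the 8 amplified CMV libraries, 6 were metastases (5 from liver, 1 from a lymph node) and 2 were lung tumors, while all 7 without amplification were lung tumors, so amplification and tissue cannot be told apart. The labels also call the chromatin of all 8 amplified libraries hyperaccessible and that of 0 of the 7 others, so this state and amplification cannot be told apart either. Of the CGRP lung tumors, 1 was Nfib-amplified. Amplified CMV libraries were prepared in batch 1 (2 libraries) and batch 3 (6), and those without amplification likewise (2 and 5). Batch 2 held all 7 CGRP liver metastases and 7 CGRP lung tumors, and batch 3 the other 4 lung tumors. The deposited tables give fitted values with no value per library, so depth per library is unknown and no value within a batch could be computed. The labels do not say which libraries came from separate animals, so p-values may measure technical spread. In tumor tissue, fewer cells with an open site and less access per cell cannot be told apart, and whether the tissues held the labelled cell types was not checked, since markers could not be placed on mm9.

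The sequences just before the annotated starts of 4 of these genes are printed to show what lies at the loci: Unc5c, Slit2 and Epha5, where the CMV comparison gave raised peaks and no lowered one, and Slit3, where it gave both. They are RefSeq sequences of build GRCm38.p6, each 250 bases ending at the base before the start of transcription, read 5′ to 3′ on the strand of the gene, and their coordinates cannot be set beside the mm9 peaks. Capitals mark TTGGC or its reverse complement GCCAA, the core site bound by nuclear factor I proteins. Unc5c lies on the plus strand at chr3:141465314-141465563, Slit2 on the plus strand at chr5:47982905-47983154, Epha5 on the minus strand at chr5:84417383-84417632 and Slit3 on the plus strand at chr11:35121206-35121455.
Unc5c: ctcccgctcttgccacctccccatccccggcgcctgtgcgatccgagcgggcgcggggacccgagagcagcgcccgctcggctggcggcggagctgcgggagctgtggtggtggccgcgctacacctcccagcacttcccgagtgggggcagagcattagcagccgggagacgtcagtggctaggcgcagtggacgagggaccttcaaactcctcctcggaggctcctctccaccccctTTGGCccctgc
Slit2: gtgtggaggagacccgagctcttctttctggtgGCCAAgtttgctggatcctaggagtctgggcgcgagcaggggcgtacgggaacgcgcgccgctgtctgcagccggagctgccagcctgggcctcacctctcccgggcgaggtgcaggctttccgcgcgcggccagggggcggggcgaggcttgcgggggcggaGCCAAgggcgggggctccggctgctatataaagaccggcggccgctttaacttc
Epha5: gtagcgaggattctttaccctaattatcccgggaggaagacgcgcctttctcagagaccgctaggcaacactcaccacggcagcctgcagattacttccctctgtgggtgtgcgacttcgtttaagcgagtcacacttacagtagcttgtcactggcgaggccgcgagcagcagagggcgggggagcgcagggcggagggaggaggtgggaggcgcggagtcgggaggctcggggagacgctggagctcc
Slit3: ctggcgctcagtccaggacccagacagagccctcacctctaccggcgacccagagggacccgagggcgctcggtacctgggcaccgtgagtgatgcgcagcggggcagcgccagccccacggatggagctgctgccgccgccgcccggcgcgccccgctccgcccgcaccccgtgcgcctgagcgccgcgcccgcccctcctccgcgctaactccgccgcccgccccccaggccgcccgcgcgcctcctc

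All 8 genes were matched in RefSeq, with 10 promoter windows, since Robo2 has 3 annotated starts. The core site was present 2 times before Slit2, 217 and 54 bases before the start, and 1 time before Unc5c, 11 bases before it. One start of Robo2 had 1 core site, 78 bases before it, and the letters were absent from the windows of Slit3, Sema3a, Nrp1, Epha5 and Robo1. For comparison, 41.5% of 32851 RefSeq promoter windows of the same length held TTGGC on either strand. The full palindrome of nuclear factor I, the core site followed after 5 bases by its reverse complement, was in none of the 10 windows and in 0.0365% of all. The E-box CAGCTG, a motif of basic helix-loop-helix factors, was in 1 window of Robo2 and in 13% of all, and in the Robo2 window it overlapped no core site. The promoters differed in base composition, with a GC content of 78.8% for Slit3, 71.2% for Unc5c, 69.6% for Slit2, 64.4% for Nrp1, 62.4% for Epha5 and 40.8% for Sema3a, where the median over all promoters was 52.4%. These matches are letters in a window and were not tested as binding sites.

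In CMV libraries, more peaks of the axon guidance loci were raised than lowered with Nfib amplification. Of 190 member peaks tested, 83 (43.7%) were raised, meaning an adjusted p under 0.05 and a positive log2 fold change, where 34.3% of all peaks were. Another 9 members (4.74%) were lowered, against 12.2% of all peaks. In the authors' deposited table, the median log2 fold change of amplified over not amplified was 1.35 over members and 0.60 over all peaks. Raised members had a median of 2.63 (median SE 0.79), a 6.20-fold difference, and lowered members a median of -1.73 (median SE 0.47), in the authors' deposited table. A positive log2 fold change was found at 160 of 190 members (84.2%) and at 66.2% of all peaks.

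The balance between directions depends on the scaling. With the median of all peaks, 0.60, subtracted, 53 members were raised and 17 lowered, so that raised peaks made up 75.7% of called members on the centred scale and 90.2% on the deposited one. Over all peaks these shares were 43.8% and 73.7%, and on the centred scale 19.9% of all peaks were raised and 25.6% lowered. The second deposited test asks for a change beyond 0.5 on the log2 scale. By it, 49 members (25.8%) were raised, against 19% of all peaks. Of 190 members 5 were lowered, against 5280 of all 113873 peaks tested. Just inside the threshold was a Slit2 peak from 48376343 to 48376843, with a log2 fold change of 1.29 (adjusted p = 0.0369) in the authors' deposited table. Just outside was another Slit2 peak, from 48666580 to 48667080, with 2.10 (adjusted p = 0.0510) in the authors' deposited table.

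**Figure D1:**
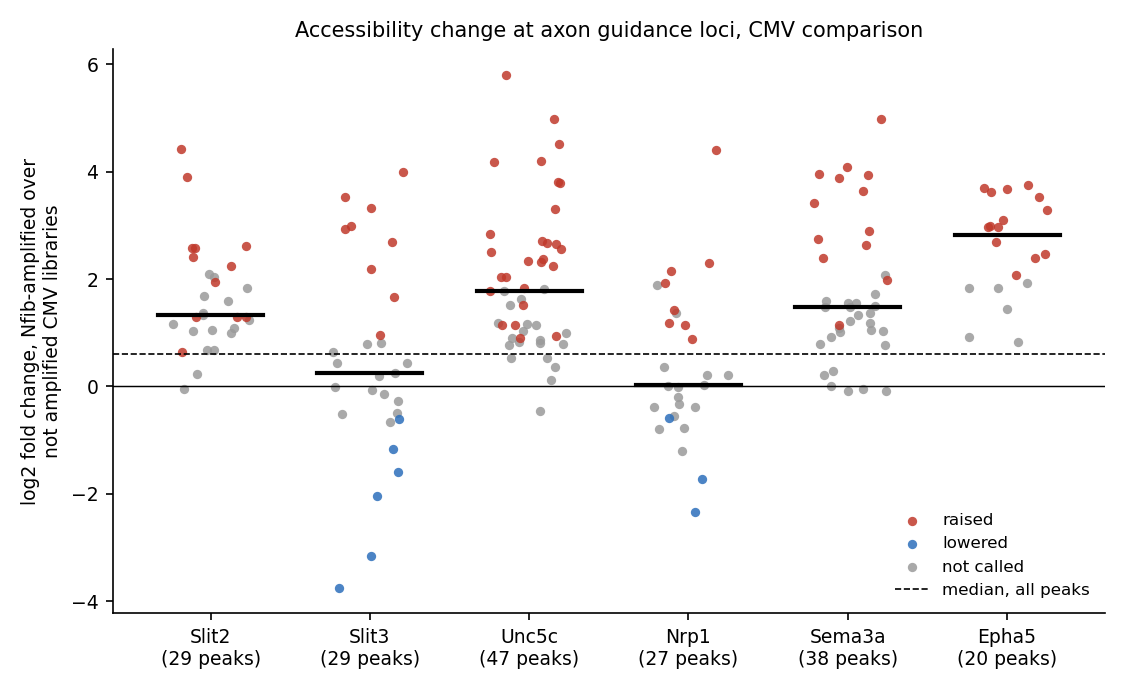
Log2 fold change of Nfib-amplified over not amplified CMV libraries (y axis) for each tested member peak, by locus (x axis). Points are peaks, colored by call (raised, lowered or not called at an adjusted p of 0.05), thick bars are medians of the locus, and the dashed line is the median of all peaks. Epha5 has the highest median, 2.83, and only Slit3 and Nrp1 hold lowered peaks on the deposited scale.

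Among the ligands, the called peaks of Slit2 and Sema3a were all raised on the deposited scale, and those of Slit3 went in both directions. At Slit2, 12 of 29 peaks (41.4%) were raised, where 34.3% of all peaks were, and none was lowered, while 28 of 29 log2 fold changes were above 0, with a median of 1.34 in the authors' deposited table. After centring, 6 Slit2 peaks were raised and 1 lowered, where 19.9% and 25.6% of all peaks were. Among Slit2 peaks with a mean normalised count of at least 20, the largest gain was from 48472571 to 48473071, at 2.24 (adjusted p = 0.00560, SE 0.71), a 4.74-fold difference, in the authors' deposited table. By the mean count of the authors' deposited table, 418, the strongest Slit2 peak ran from 48763342 to 48763842. Its log2 fold change was -0.04 (adjusted p = 0.863, SE 0.16) in the authors' deposited table, and it was the peak lowered on the centred scale. It lay 36.4 kb from the end of the window. At Slit2 the longest run of neighbouring raised peaks had 4 peaks within 9.82 kb, from 48367020 to 48376843, with log2 fold changes between 0.65 and 2.62 in the authors' deposited table, and 1 of the 4 was raised with centring.

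At Sema3a, 13 of 38 peaks (34.2%) were raised, a share near the 34.3% of all peaks, and none was lowered. With centring 10 were raised, where 19.9% of all peaks were. Of the 13, 2 had a mean count of at least 20, from 13470525 and from 13628873, and neither was called with centring. The median of this locus was 1.48 in the authors' deposited table, where single peaks ranged between -0.09 and 4.97. Its strongest peak, with a mean count of 88.2 in the authors' deposited table, was also its largest gain at a mean count of 20 or more. That peak, from 13470525 to 13471025, had a log2 fold change of 2.39 (adjusted p = 0.0152, SE 0.86) in the authors' deposited table, and an adjusted p of 0.0758 with centring. Larger gains stood at weaker sites, in the first part of the window and further on. The largest, from 13090357 to 13090857 and chosen after its values were seen, had 4.97 (adjusted p = 8.979e-06, SE 0.99) at a mean count of 14 in the authors' deposited table. The longest run of raised peaks at this locus had 3 peaks and spanned 37.8 kb, with 2 of the 3 raised after centring.

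Slit3 held 6 of the 9 lowered members on the deposited scale and 8 of 17 with centring. Of its 29 peaks, 9 (31.0%) were raised and 6 lowered, where 34.3% and 12.2% of all peaks were. With centring 7 were raised and 8 lowered, near balance, where 19.9% and 25.6% of all peaks were. The median of Slit3 was 0.26, below the 0.60 of all peaks, in the authors' deposited table. A pair of neighbouring peaks fell by the most. One, from 35087505 to 35088005, had a log2 fold change of -3.75 (adjusted p = 7.695e-09, SE 0.57) in the authors' deposited table, and the other, from 35086829 to 35087329, had -3.16 (SE 0.76). Further on, from 35094321 to 35094821, a peak was raised at 0.95 (adjusted p = 0.00522, SE 0.30) in the authors' deposited table, a call lost with centring (adjusted p = 0.340) and in the second test. A second pair of losses, from 35416117 to 35416617 at -1.60 and from 35418643 to 35419143 at -2.04, was followed by a gain of 2.99 from 35421004 to 35421504, in the authors' deposited table. Calls in both directions thus lay within this window; these sites other than the one from 35087505 were chosen after their values were seen. The largest gain by the naming rule was 3.54 (adjusted p = 0.000397, SE 0.88) from 35500744 to 35501244 in the authors' deposited table. The strongest peak of all members, with a mean count of 456 from 35582697 to 35583197, was lowered at -0.60 (adjusted p = 0.00161, SE 0.17), 0.661-fold, in the authors' deposited table.

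Among the receptors, Unc5c and Epha5 had the highest shares of raised peaks. At Unc5c, 27 of 47 peaks (57.4%) were raised and none lowered, where 34.3% and 12.2% of all peaks were. With centring 16 Unc5c peaks were raised, where 19.9% of all peaks were. Of 47 log2 fold changes, 46 were above 0, against 66.2% over all peaks. The median of Unc5c was 1.78, a 3.43-fold difference, in the authors' deposited table. The largest Unc5c gain by the naming rule ran from 141595819 to 141596319, near the end of the window, at 4.99 (adjusted p = 2.61e-07, SE 0.85) and a mean count of 46.7 in the authors' deposited table. The largest gain of all members, chosen after its values were seen, was 5.81 (adjusted p = 1.247e-08, SE 0.90) from 141154501 to 141155001 at a mean count of 16.5 in the authors' deposited table. Gains were also seen at strongly covered Unc5c sites. One, from 141321888 to 141322388 with a mean count of 142, had 2.71 (SE 0.55), and one from 141473799 to 141474299 with a mean count of 186 had 1.51 (SE 0.34), in the authors' deposited table. Both were chosen after their values were seen. The longest run of raised peaks had 5 peaks over 33.2 kb, from 141345549 to 141378768, with log2 fold changes between 1.15 and 4.19 in the authors' deposited table, and 2 of the 5 were raised with centring.

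Epha5 had the highest share of raised peaks, 14 of 20 tested (70%), and none lowered, where 34.3% and 12.2% of all peaks were. With centring, 11 were raised, where 19.9% of all peaks were. Every tested Epha5 peak had a positive log2 fold change, between 0.82 and 3.76, with a median of 2.83, a 7.10-fold difference, in the authors' deposited table. The gain named by the rule was 3.67 (adjusted p = 0.000329, SE 0.90) from 84540177 to 84540677 in the authors' deposited table. The strongest Epha5 peak by mean count, 196 from 84582090 to 84582590, had a log2 fold change of 2.65 (SE 0.84) and no p in the authors' deposited table, so it was left out of all counts. At the far end of the peaks of this window, 5 neighbouring peaks within 9.29 kb, from 84837347 to 84846641, were all raised. Their log2 fold changes lay between 2.07 and 3.63 in the authors' deposited table, and 4 of the 5 were raised with centring.

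Nrp1, the co-receptor for Sema3a, held both gains and losses. Of its 27 peaks, 8 (29.6%) were raised and 3 lowered on the deposited scale. With centring 3 were raised and 8 lowered, so the balance at Nrp1 turned with the scaling. Over all peaks it turned likewise, from 34.3% raised and 12.2% lowered to 19.9% raised and 25.6% lowered. The median of Nrp1 was 0.02 in the authors' deposited table. The strongest site, with a mean count of 225 from 130880935 to 130881435, had 0.37 (adjusted p = 0.102, SE 0.19) in the authors' deposited table and -0.24 with centring. By the naming rule the largest Nrp1 gain was 2.30 (adjusted p = 7.855e-05, SE 0.51) from 130907022 to 130907522, and the largest loss was -1.73 (adjusted p = 0.000677, SE 0.45) from 130940693 to 130941193, in the authors' deposited table. A weaker site from 131000134 to 131000634, chosen after its values were seen, had the largest gain of this locus, 4.40 (SE 0.72), at a mean count of 18.8 in the authors' deposited table.

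**Figure D2:**
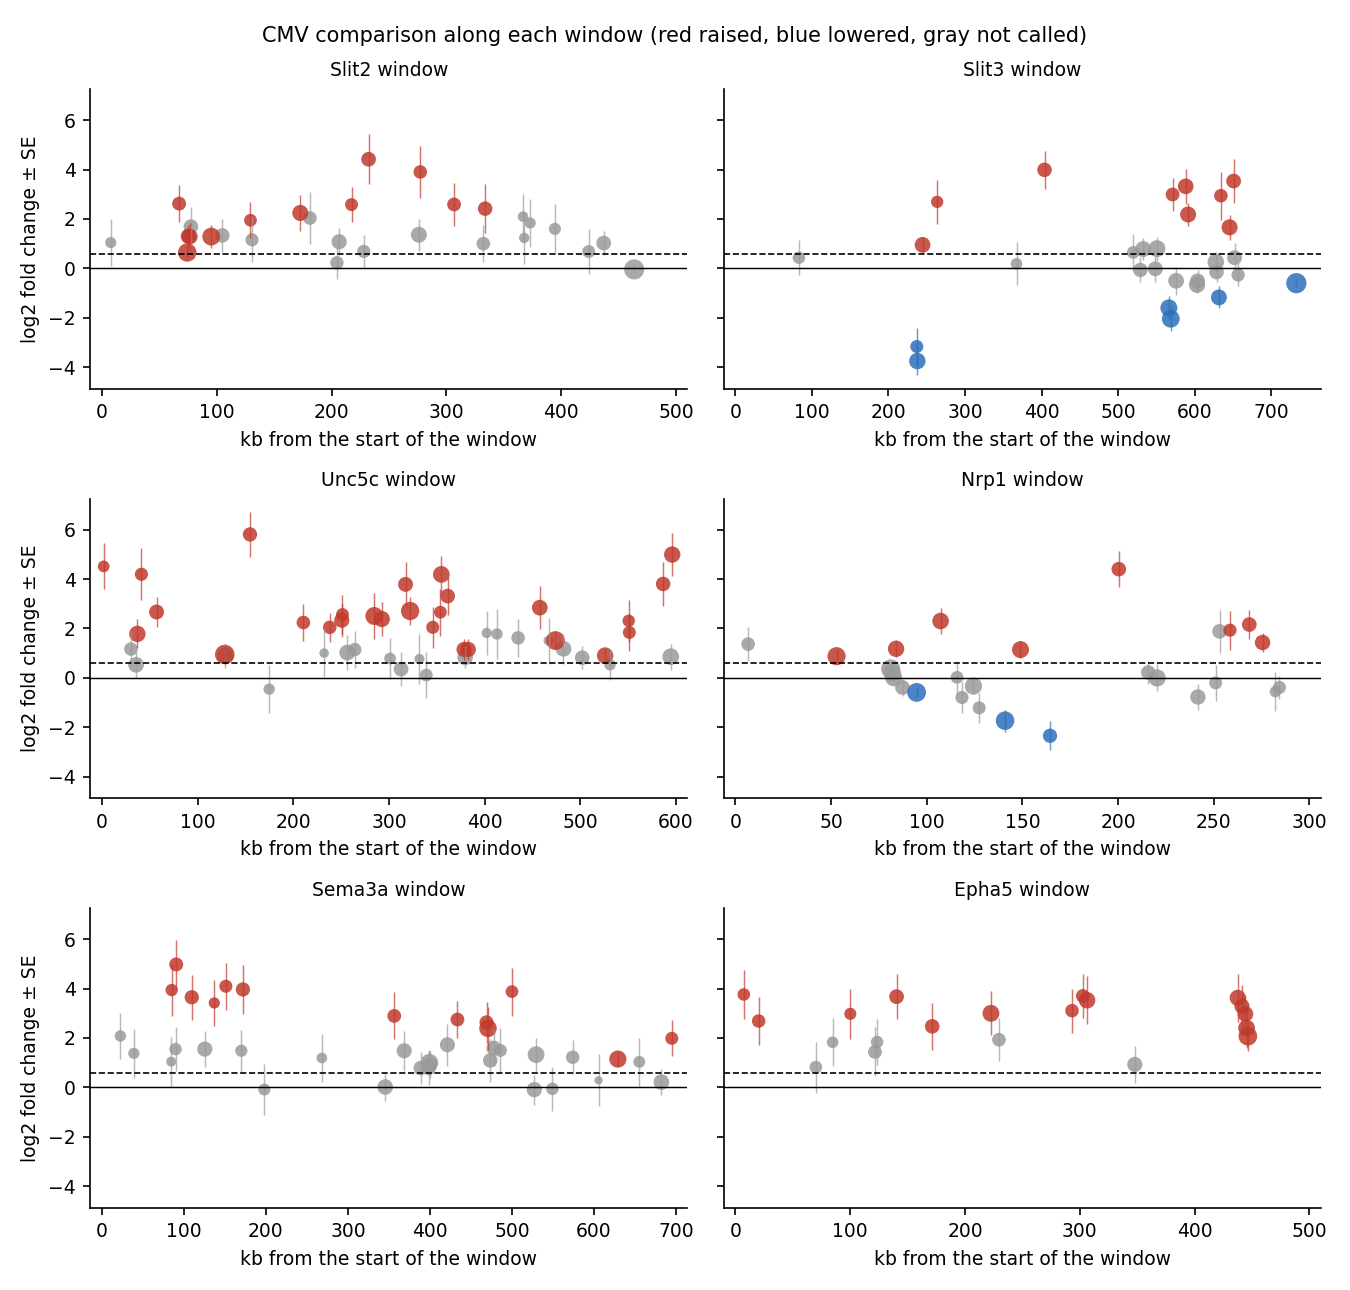
Log2 fold change of Nfib-amplified over not amplified CMV libraries (y axis) along each window with merged peaks (x axis, kb from the window's start). Points are peaks, larger for a higher mean count, with bars of 1 SE, in red if raised, blue if lowered and gray if not called; the dashed line is the median of all peaks, 0.60. Raised peaks are spread along the Unc5c and Epha5 windows with uncalled peaks between them, while those of Slit3 and Nrp1 hold gains and losses. The last Epha5 peak lies 53.6 kb from the end of its window.

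Peaks on both sides of the windows' edges were compared without a test. The 12 peaks nearest an edge on the inside lay 1.87 to 83.1 kb from it, with a median log2 fold change of 1.68 in the authors' deposited table, 5 raised and 1 lowered. The 12 nearest on the outside, 2.90 to 47.1 kb away, had a median of 1.40 in the authors' deposited table. Of these 12, 3 were raised and none lowered. Over all peaks, 34.3% were raised and 12.2% lowered. By RefSeq gene order in GRCm38.p6, the genes next to these loci are Pdha2 and Bmpr1b for Unc5c, Tecrl and Cenpc1 for Epha5, Sema3d and Gm6647 for Sema3a, and Lcorl and Pacrgl for Slit2. Slit3 lies between Spdl1 and Pank3, and Nrp1 between Pard3 and Itgb1.

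Calls were found at weak and strong sites. Of 107 members with a mean count under 20, 43 (40.2%) were raised and 2 (1.87%) lowered. Of all peaks of that range, 34.3% were raised and 6.50% lowered. In the range from 20 to 50, 24 of 51 members (47.1%) were raised and 2 (3.92%) lowered. Of all peaks of that range, 38.2% were raised and 14.5% lowered. At a mean count of 50 or more, 16 of 32 members (50%) were raised and 5 (15.6%) lowered, against 29.3% of all peaks raised and 21.2% lowered. Member peaks were somewhat weaker than the rest, with a median mean count of 18.7 against 21.2 over all peaks in the authors' deposited table, and the mean itself includes the compared libraries.

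In CGRP tumors, few peaks of the axon guidance loci were called between liver metastases and lung tumors. Of 167 members with an adjusted p, 1 was raised and 0 were lowered, where 0.0752% of all peaks were raised and 0.779% lowered. Another 24 members had no adjusted p and were not counted. The median log2 fold change of liver metastases over lung tumors was 0.15 over members with an adjusted p and 0.01 over all peaks in the authors' deposited table. At an unadjusted p under 0.05, 14 of 190 members (7.37%) were higher and 4 (2.11%) lower in liver metastases, against 3.37% and 6.25% of all peaks. In either direction these were 9.47% of members and 9.62% of all peaks. With centring 1 member was raised, where 0.0656% of all peaks were, and no member was called under the second deposited test. The median SE of a member was 0.66 in the authors' deposited table, so moderate changes could not be told from 0.

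The raised CGRP site was the strongest peak of Unc5c, from 141128185 to 141128685, with a mean count of 291 in the authors' deposited table. Its log2 fold change in liver metastases over lung tumors was 1.39 (adjusted p = 0.0172, SE 0.35), a 2.63-fold difference, in the authors' deposited table. Nfib-amplified CMV libraries over those without amplification gave it 0.95 (adjusted p = 0.0363, SE 0.39) in the authors' deposited table, a call lost with centring (adjusted p = 0.484). The change in the CMV comparison minus that in the CGRP comparison was -0.45 (SE 0.53, two-sided z test, adjusted p = 0.566 over all peaks). At Unc5c, 40 of 47 CGRP log2 fold changes were above 0, with a median of 0.60 in the authors' deposited table. Of all peaks with an adjusted p, 50.6% were above 0. An unadjusted p under 0.05 was found at 9 Unc5c peaks, all higher in liver metastases, where 3.37% of all peaks were. Sema3a was at the other end, with 11 of 38 above 0 and a median of -0.33 in the authors' deposited table. The other medians were 0.51 for Epha5, 0.23 for Nrp1, 0.20 for Slit2 and -0.13 for Slit3 in the authors' deposited table.

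Part of the gains at these loci were larger in the CMV than in the CGRP comparison. The groups share no library, and the change was contrasted at each of 190 members. It was higher in the CMV comparison at 34 members (17.9%), where 17.8% of all peaks were, and higher in the CGRP comparison at 5 (2.63%), against 5.62% of all peaks. The share with the higher CMV change was thus near that of all peaks. Of the 34, 33 were also raised in the CMV comparison, and none was called in the CGRP comparison. Their differences in log2 fold change lay between 1.23 and 5.65, with a median of 3.64. With both comparisons centred on their medians, 18 members were higher in the CMV and 14 in the CGRP comparison. The share of all peaks on that scale was not computed, so these 2 counts are not read as particular to the loci.

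Sema3a had 10 such peaks, Unc5c 8, Slit3 7, and Slit2, Nrp1 and Epha5 3 each. At the Sema3a peak from 13090357 the CMV change of 4.97 stood against -0.67 (SE 1.07) in the CGRP comparison of the authors' deposited table, a difference of 5.65 (adjusted p = 0.00188, SE 1.46). At the Nrp1 peak from 131000134 the difference was 5.04 (adjusted p = 3.459e-05, SE 0.99). The Unc5c peak near the end of its window differed by 4.42 (adjusted p = 0.00320, SE 1.20). Its CGRP change was 0.57 with a 95% interval of -1.08 to 2.22 from the authors' deposited table, which does not show that the site was unaltered. The 5 members with the higher change in the CGRP comparison were 3 Slit3 and 2 Nrp1 peaks, of which 4 were lowered in the CMV comparison. The Slit3 peak from 35087505 had a CGRP change of -0.89 (adjusted p = 0.525, SE 0.47) in the authors' deposited table, and the difference was -2.86 (adjusted p = 0.00202, SE 0.74). At the Nrp1 loss from 130940693 the CGRP change was 0.33 (SE 0.40) in the authors' deposited table, a difference of -2.06 (adjusted p = 0.00626, SE 0.60). The raised peaks of Epha5 mostly failed this test: the one from 84540177 differed by 3.08 (adjusted p = 0.0594, SE 1.27).

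**Figure D3:**
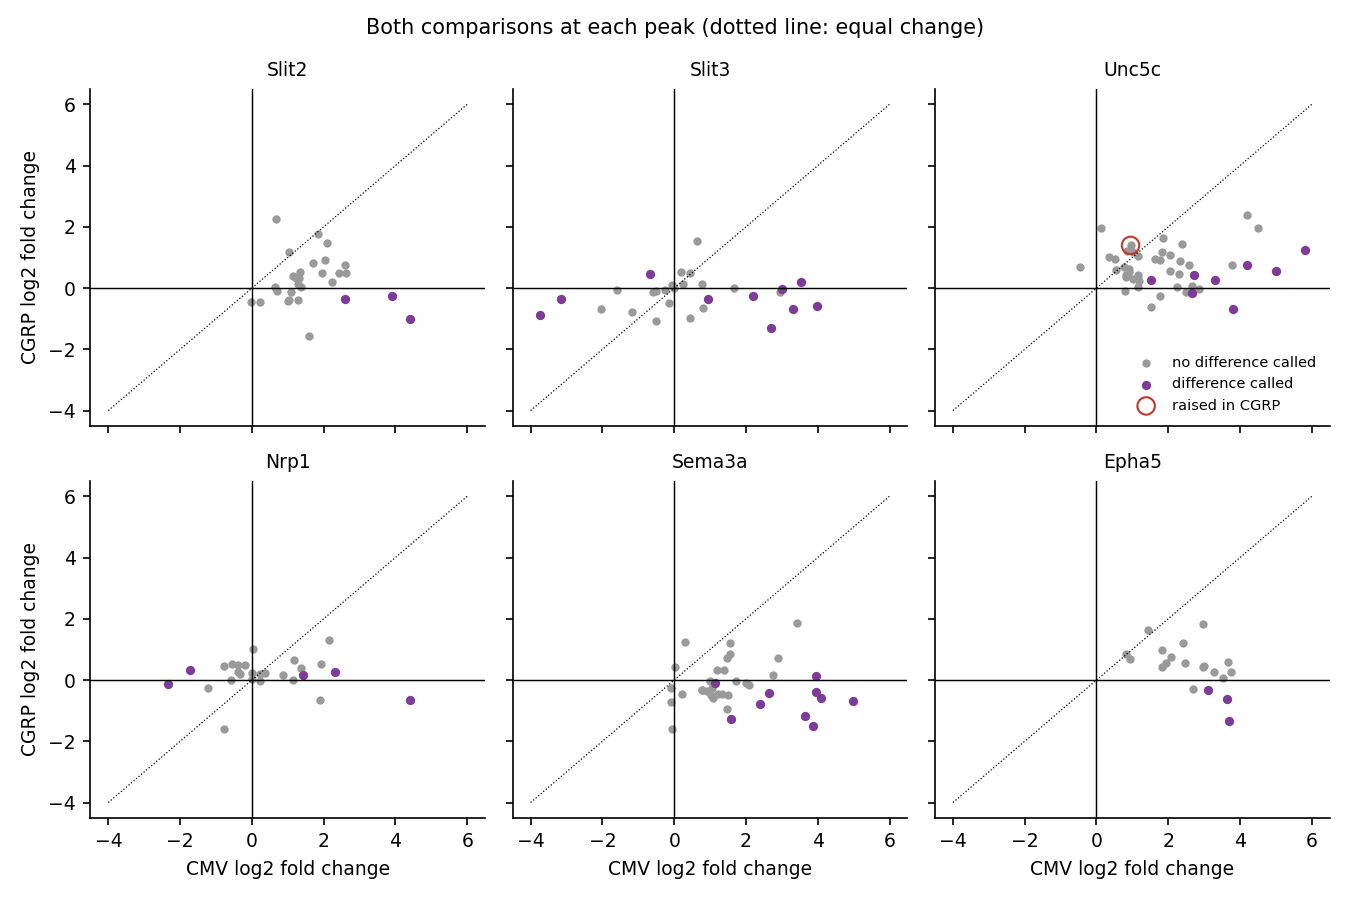
Log2 fold change in the CMV comparison, Nfib-amplified over not amplified (x axis), against that in the CGRP comparison, liver metastases over lung tumors (y axis), for each member peak by locus. Purple points differ between the comparisons at an adjusted p of 0.05, the red ring is the peak raised in CGRP liver metastases, and the dotted line marks equal change. CMV values reach 5.81 and CGRP values lie between -1.59 and 2.39, and 34 of the 39 purple points lie to the right.

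Summits, called by the authors on pools of libraries, showed which sites were found in which pool. The CMV pool joined 19 libraries of batch 1, of which 15 were low in enrichment, the CGRP pool 14 of batch 2 and the mixed pool 15 of batch 3. The mixed pool held 11 Ad-CMV-Cre and 4 Ad-CGRP-Cre libraries. Pool and batch cannot be told apart, nor can vector and batch between the CMV and CGRP pools. With 1 list per pool there is no replicate. Nfib amplification also differed between the pools. The CMV pool held 2 amplified libraries of the CMV comparison and 6 more among those low in enrichment. The mixed pool held 6 amplified libraries of the CMV comparison. Of the CGRP libraries, 0 liver metastases and 1 lung tumor were amplified. Pool counts are thus not independent of amplification. A CMV summit lay within 250 bp of the centre of 182 members (95.3%, against 88.6% of all peaks), and a CGRP summit of 112 members (58.6%, against 75% of all peaks). A CMV but no CGRP summit marked 77 members (40.3%, against 22.6% of all peaks), and the reverse marked 7 (3.66%, against 9.10% of all peaks). At Epha5, 7 of 21 peaks had a CGRP summit, at Sema3a 16 of 38 and at Slit2 13 of 29. Unc5c had 26 of 47, Slit3 25 of 29 and Nrp1 25 of 27. Among members raised with amplification, 39 (47.0%) held a CGRP summit, where 54.6% of all raised peaks did, and all 9 lowered members held one, as did 97.9% of all lowered peaks.

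Counting summits over whole windows gave a similar order of loci. The ratio of CMV-pool to CGRP-pool summits was 13.6 at Epha5 (95 against 7), 7.19 at Sema3a (115 against 16), 4.71 at Slit2 (80 against 17) and 2.67 at Unc5c (104 against 39). It was 1.12 at Nrp1 (37 against 33) and 0.875 at Slit3 (42 against 48), and 1.46 over the whole lists. Among summits with a score of at least 5 the ratio was 6.29 at Epha5 (44 against 7), 5.55 at Sema3a, 4.09 at Slit2, 2.03 at Unc5c, 0.963 at Nrp1, 0.865 at Slit3 and 1.16 over the whole lists. Slit3 and Nrp1, the loci with lowered peaks on the deposited scale, had the lowest ratios of the 8 loci under both counts. Together 16.1% of their peaks were lowered, where 12.2% of all peaks were, and Robo1 and Robo2 had no peak to call. Whether lowered calls go with these ratios was not tested.

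**Figure D4:**
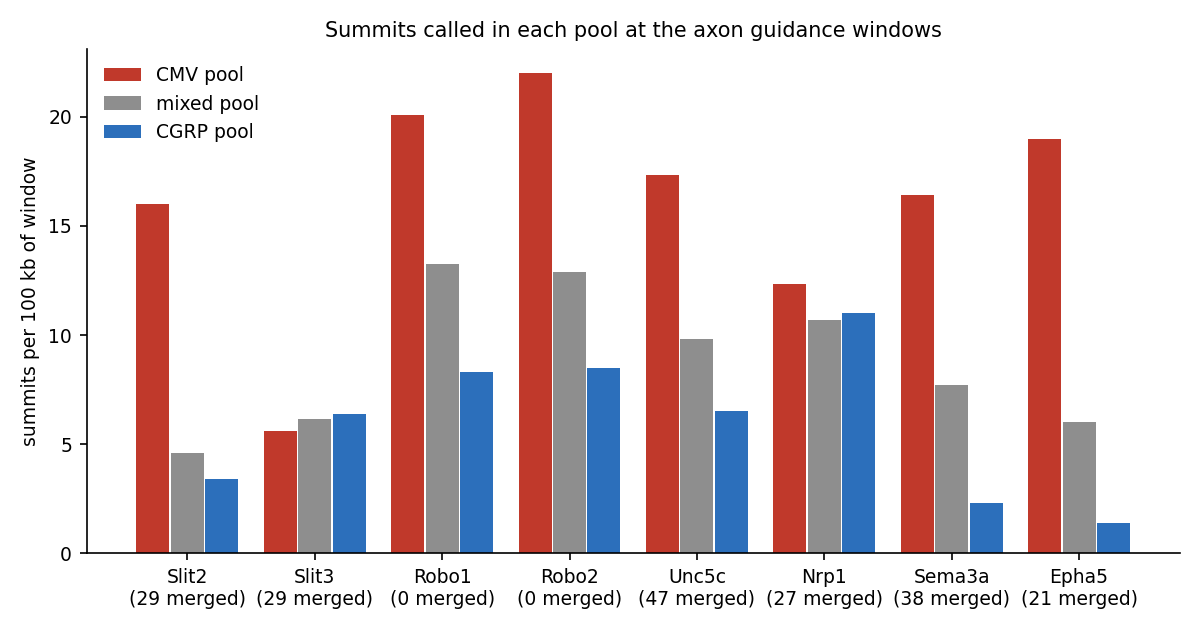
Summits per 100 kb of window (y axis, bars starting at 0) at each of the 8 loci (x axis), for the CMV, mixed and CGRP pools; numbers under the names are merged peaks. Robo1 and Robo2 have the highest CMV-pool densities, 20.1 and 22.0 per 100 kb, and no merged peak.

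The Robo receptors could be read from summits alone. The Robo1 window held 191 summits of the CMV pool, 79 of the CGRP pool and 126 of the mixed pool, and the Robo2 window held 176, 68 and 103. By RefSeq in GRCm38.p6, Robo1 is 1020 kb long and Robo2 1555 kb, while their windows are 950 and 800 kb. Neither window can hold the whole gene as annotated there, so these counts cover only part of each. Both windows lie in a stretch of 6.01 Mb of chromosome 16, between 69993331 and 76001593, in which the merged list used here has no peak, so neither comparison gives a value there. Joined within 250 bp, the summits formed 195 sites at Robo1, of which 67 were found in all 3 pools and 72 in the CMV pool only. Robo2 had 186 sites, 47 of them in all pools and 81 in the CMV pool only. Sites in all pools were thus 34.4% at Robo1 and 25.3% at Robo2, against 37.0% over the whole lists, and sites of the CMV pool only 36.9% and 43.5%, against 25.4%. Of CMV-pool summits, 20.4% at Robo1 and 17.0% at Robo2 were among the highest 25% of the list by the authors' score. The sites given next were chosen for their rank in all 3 lists. At Robo1, the site from 72959712 to 72959728 stood at the 99.1 percentile of the CMV list, the 98.3 percentile of the CGRP list and the 98.4 percentile of the mixed list. At Robo2, the site from 74411963 to 74411991 stood at the 97.7, 95 and 98.1 percentiles of these lists in the same order. The CMV to CGRP ratios of summits, 2.42 at Robo1 and 2.59 at Robo2, were above the 1.46 of the whole lists, and at a score of at least 5 they were 1.90 and 1.88, against 1.16. Whether access at the Robo loci differed with Nfib amplification was not tested.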

How the data were processed

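ATAC-seq libraries of mouse tumors were grouped by the labels. The submitters' processing notes name mm9 as the build and Bowtie2, MACS2 and DESeq2 as tools, but give neither version nor role. The deposited summit lists, called on pooled libraries per the labels, carry a score read as −log10 of the q-value. The deposited tables hold, per the file headers, a mean normalised count (a signal averaged by the authors over libraries), log2 fold changes with SEs, a Wald score, p-values and adjusted p-values; a second set of p-values behaves as a test for a log2 change beyond 0.5. They hold 0 columns of per-library values. The direction of each comparison rests on the names of the tables. The description of 1 CMV library without amplification lists no comparison table, and whether it entered the fit is not known.

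Peaks were called at the authors' adjusted p under 0.05, over all peaks. Differences between comparisons used a two-sided z test (SE the root of the summed squared SEs, Benjamini-Hochberg over all peaks). A run on simulated data drew normal errors with the deposited SEs. It checked the computation only, since it took those SEs as right. Members, gene lists and tests were chosen with earlier results of these data known. Named peaks are, in each locus, the highest mean count, the largest called gain and loss at a mean count of at least 20, every CGRP call and the longest run of calls in 1 direction; others are said to be chosen after their values were seen. Alternatives covered thresholds, adjustment, a mean count minimum of 20, centring, windows changed by 50 kb, summit distance and a summit score of at least 5. Planned counts for other genes of the pathway and protein identities were not analysed here, since no mm9 annotation or protein table was used. Versions were pandas 2.3.3, numpy 2.4.6, matplotlib 3.10.9 and scipy 1.17.1 under Python 3.11.15.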

Additional observations from a re-analysis of the deposited data

Results flagged for a closer look

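Summits at the Robo1 and Robo2 windows stand out because they lie in data that neither comparison uses: no merged peak of the list used here falls there. Robo1 held 191 summits of the CMV pool, 79 of the CGRP pool and 126 of the mixed pool. Robo2 held 176, 68 and 103. There are no control samples to set them against, and the depth of the pools is unknown.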

How the results depend on the processing

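No paired analysis was possible because the deposited tables hold no value per library. For the same reason no replicate was left out in turn. In the CMV comparison, the 83 raised and 9 lowered members became 49 and 5 under the second deposited test, for a log2 change beyond 0.5, and 53 and 17 with centring; 40 were raised at a mean count of at least 20, where fewer peaks are tested. The 1 CGRP gain became 0 at an adjusted p of 0.01 and 0 under that second test. Windows lengthened by 50 kb added 1 lowered CGRP peak, beside Slit3, at -1.16 (adjusted p = 0.0340, SE 0.31) in the authors' deposited table. Differences between comparisons, 34 higher in CMV and 5 in CGRP, became 16 and 2 at 0.01, 18 and 14 with centring, 15 and 3 at a mean count of at least 20, and 11 and 1 with Benjamini-Yekutieli adjustment. For these alternatives of the difference, shares over all peaks were not computed. CMV-pool summits in the windows were 494 of 840 at a score of at least 5, and CGRP-pool summits 242 of 307. Beyond these, 39 of the main counts stayed within 1.5 times, and of the values of single named peaks under the alternatives 132 kept their direction and side of the threshold, 10 lost the call, 1 gained it and 1 changed sign, the uncalled Nrp1 peak from 130880935, at -0.24 with centring. Sema3a had 2 raised peaks at a mean count of at least 20, of 13. Of the counts per locus, those of 0 included, 187 stayed within 1.5 times and 29 did not. Under the second test, raised CMV peaks fell from 12 to 4 at Slit2, 9 to 5 at Slit3 and 27 to 16 at Unc5c. They fell from 8 to 4 at Nrp1, 13 to 10 at Sema3a and 14 to 10 at Epha5. Depth per library is unknown, so which sites were too thinly covered to be called cannot be stated.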
